A study of Mus musculus with 6 samples.

Results

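Several enzymes of sugar and energy metabolism have a second gene that is used mainly in the testis, and 5 such testis isozymes were described here beside the 5 genes used in other tissues, in RNA of fetal mouse ovaries. The 10 genes form 5 pairs: Pgk2 and Pgk1, Ldhc and Ldha, Gapdhs and Gapdh, Pdha2 and Pdha1, and Gykl1 and Gyk. They were taken by symbol from a count table of 48709 genes, all 10 were found, and all 10 passed the filter on low counts that left 20167 genes. The genes were proposed with earlier results of the same contrast known, so their levels and fold changes are given as a description, with no test.

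Sperm depend on glycolysis along the tail for movement, and several of the enzymes they use come from genes that are switched on during meiosis and in spermatids. Some of these genes are intronless copies of an X-linked gene, and they are read while the X chromosome is silenced in spermatocytes. Somatic tissues, the fetal ovary included, use the partner genes of each pair.

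The libraries were made from ovaries of CD1 mouse embryos at 13.5 days post coitum (dpc), the stage at which female germ cells are entering meiosis. Pregnant females received 30 mg/kg per day of acetaminophen (APAP) together with 15 mg/kg per day of ibuprofen (IBU) by mouth from 10.5 to 13.5 dpc, and control females received the ethanol diluent over the same days. Each of the 3 control and 3 APAP+IBU libraries came from its own pool of gonads from several embryos of different litters. Each value is thus an average over embryos. Titles of the exposed samples give ibuprofen only, but their exposure field gives the combination. Values of a group are given in the order of replicates 1, 2 and 3.

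Total counts ran from 37811968 to 48954631 per library. Fetal germ cell and ovarian somatic genes were present in every library: Dazl lay between 368 and 592 CPM (read counts scaled to the normalised library size) and Wnt4 between 106 and 203 CPM. The summed level of 5 ovarian somatic genes was 568, 464 and 309 CPM in the controls. After exposure it was 439, 433 and 428 CPM. Control replicate 1 was the highest library for 4 of these 5 genes. The libraries also differed in RNA of other tissues. The summed level of 9 liver genes was 176 to 535 CPM in replicates 1 and 2 of both groups, and replicate 3 stood at 1881 CPM among controls and at 3043 CPM after exposure. The summed level of 4 Y-linked genes was 9.37 CPM in control replicate 2 and 2.26 to 2.86 CPM in the others. In such whole-tissue RNA, fewer cells of a type and less RNA per cell cannot be told apart.

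Pgk2, Pdha2 and Gykl1 each have 1 exon in the GENCODE M21 annotation of GRCm38, whereas Ldhc has 8 and Gapdhs 11. Pgk2 (ENSMUSG00000031233) lies at chr17:40207015-40208640 and Pdha2 (ENSMUSG00000047674) at chr3:141210004-141212355. The partners of the single-exon genes are the 3 members on the X chromosome: Pgk1 (ENSMUSG00000062070) at chrX:106187100-106203699, Pdha1 (ENSMUSG00000031299) at chrX:160122209-160138413 and Gyk (ENSMUSG00000025059) at chrX:85701937-85776819. Gapdh (ENSMUSG00000057666) lies at chr6:125161715-125166467 and Ldha (ENSMUSG00000063229) at chr7:46841475-46855627. Ldhc (ENSMUSG00000030851) lies at chr7:46861203-46878142 on the plus strand, and 5575 bases separate it from the end of Ldha. Gapdhs (ENSMUSG00000061099) lies on the minus strand at chr7:30729775-30743681 and overlaps Tmem147os and Gm26935, which are annotated on the other strand.

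The promoters of the testis isozymes are shown because the genes were read at such different levels in the same libraries. They come from RefSeq on GRCm38.p6 and cover 250 bases before to 50 bases after the annotated start. A promoter was matched for 9 of the 10 members. Capitals mark the letters TGACG (the core of the cAMP response element), GGGCGG (a GC box), CCAAT and TATAAA, each searched on both strands.
Pgk2 promoter, chr17:40208560-40208859 (minus strand): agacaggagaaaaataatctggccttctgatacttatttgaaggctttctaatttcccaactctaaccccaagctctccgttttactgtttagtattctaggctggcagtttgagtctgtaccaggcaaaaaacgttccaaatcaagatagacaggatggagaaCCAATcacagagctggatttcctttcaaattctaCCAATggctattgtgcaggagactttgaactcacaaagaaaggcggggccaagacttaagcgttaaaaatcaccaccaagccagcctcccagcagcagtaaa
Ldhc promoter, chr7:46861013-46861312 (plus strand): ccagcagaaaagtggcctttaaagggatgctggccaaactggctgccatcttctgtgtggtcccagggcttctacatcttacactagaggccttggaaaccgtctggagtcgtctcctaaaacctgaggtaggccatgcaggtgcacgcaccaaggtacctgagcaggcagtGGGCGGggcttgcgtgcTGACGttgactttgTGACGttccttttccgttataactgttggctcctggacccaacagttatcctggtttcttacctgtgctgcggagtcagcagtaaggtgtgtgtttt
Gapdhs promoter, chr7:30743632-30743931 (minus strand): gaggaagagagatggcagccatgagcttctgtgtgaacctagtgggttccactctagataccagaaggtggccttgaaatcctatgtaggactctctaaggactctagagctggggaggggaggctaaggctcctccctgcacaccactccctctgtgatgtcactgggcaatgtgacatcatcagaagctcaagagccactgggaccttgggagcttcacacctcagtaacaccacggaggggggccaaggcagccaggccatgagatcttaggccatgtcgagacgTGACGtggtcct
Pdha2 promoter, chr3:141212306-141212605 (minus strand): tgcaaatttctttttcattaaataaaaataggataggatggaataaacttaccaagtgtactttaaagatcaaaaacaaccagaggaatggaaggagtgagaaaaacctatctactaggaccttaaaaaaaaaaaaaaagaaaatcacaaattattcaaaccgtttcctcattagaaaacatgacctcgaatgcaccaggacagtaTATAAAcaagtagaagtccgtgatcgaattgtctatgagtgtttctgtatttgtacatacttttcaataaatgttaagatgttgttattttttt

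The Pgk2 window holds CCAAT at 2 places. The Ldhc window holds TGACG at 2 places and GGGCGG at 1. The Gapdhs window holds TGACG at 1 place, beyond the annotated start, where it overlaps the letters ACGTG, the core of the hypoxia response element. The Pdha2 window holds TATAAA at 1 place. Over all 27025 RefSeq promoters of this length, 20.9% hold TGACG, 35.9% hold GGGCGG, 38.0% hold CCAAT, 14.2% hold TATAAA and 19.6% hold ACGTG, so each of these letters is common and a match is only a description.

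The testis isozyme promoters were poorer in CpG than those of the partners. The Pgk2, Gapdhs and Pdha2 windows held 4 CpG each and the Ldhc window 9, and GC content was 29.7% for Pdha2, 43.0% for Pgk2, 53.3% for Ldhc and 55.7% for Gapdhs. The partner windows held 12 CpG in Gapdh, 21 in Pdha1, 23 in Gyk, 24 in Pgk1 and 30 in Ldha, with GC content from 56.7% to 67.3%. The median over all promoters was 7 CpG and 52.7% GC.

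Pgk2, Ldhc, Gapdhs and Gykl1 lay lower in every APAP+IBU library than in any control library, by 4.80 to 50.8 times over the pooled counts, while Pdha2 did not. Counts were low for Pgk2, Gapdhs and Gykl1, which passed the filter only through their control libraries. Ldhc had 773, 322 and 454 counts in the controls and 183, 93 and 90 after exposure. All 4 genes were highest in control replicate 1. The edgeR fit over all genes gives the scale against which this stands. By edgeR's quasi-likelihood test, 0 of 20167 genes (0%) passed an adjusted p of 0.05 and the smallest adjusted p was 0.0906, while 1254 genes (6.22%) had an unadjusted p under 0.05. DESeq2 called 192 genes (0.952%). Every APAP+IBU library lay below every control library for 1194 genes, 5.92% of those tested, against 4 of the 5 testis isozymes, and because this contrast chose them nothing is read from that count. The median fitted log2 fold change was -3.38 over the testis isozymes, -0.32 over the partners and -0.0047 over all genes, of which 50.6% had a negative value, as 9 of the 10 members did.

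Pgk2 encodes the phosphoglycerate kinase of spermatogenic cells, which makes ATP in the middle of glycolysis. Its level was 3.02, 1.18 and 1.47 CPM in the controls and 0.158, 0.087 and 0.104 CPM in the APAP+IBU libraries. These rest on 115, 44 and 64 counts in the controls and 8, 4 and 4 counts after exposure. The groups did not overlap, and control replicate 1 stood above the other controls by 2.27 times. The mean was 1.89 ± 0.987 CPM in controls and 0.116 ± 0.037 CPM in APAP+IBU ovaries (SD, n = 3), and the fitted log2 fold change was -3.97 (SE 0.51). The pooled counts, 223 against 16, gave a control to APAP+IBU ratio of 15.8 with an exact 95% interval of 9.53 to 28.2, which covers counting error only.

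Gapdhs encodes the glyceraldehyde-3-phosphate dehydrogenase of the sperm tail. It was measured at 4.80, 1.69 and 2.14 CPM in the controls and at 0.375, 0.131 and 0.312 CPM in the APAP+IBU libraries, from 183, 63 and 93 counts against 19, 6 and 12. The groups again did not overlap, and control replicate 1 was again the highest. The means were 2.88 ± 1.68 and 0.273 ± 0.127 CPM (SD, n = 3), the fitted log2 fold change was -3.38 (SE 0.55), and the ratio of the pooled counts was 10.4 (7.39 to 15.0). Reads of the overlapping antisense genes cannot be told apart from those of Gapdhs if strand was not used in the counting, which the sources used here do not state, and 4.55% of its 50-base stretches also occur in Tmem147os. Tmem147os (ENSMUSG00000097320) lay between 6.90 and 10.8 CPM, higher in APAP+IBU replicates 1 and 2 than in any control. Gm26935 was at 1.36 to 1.66 CPM in controls and 1.77 to 2.88 CPM after exposure. Another Tmem147os entry (ENSMUSG00000109224) was at 0.630, 0.669 and 0.115 CPM in the controls and 0.414, 0.197 and 0.338 CPM after exposure. The part of such reads in the Gapdhs level was not tested.

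Ldhc encodes the lactate dehydrogenase subunit of spermatocytes, spermatids and sperm, and was the highest of the testis isozymes per length of transcript in controls. Its level was 20.3, 8.62 and 10.5 CPM in the controls and 3.61, 2.03 and 2.34 CPM in the APAP+IBU libraries. The groups did not overlap, although the lowest control stood only 2.39 times above the highest APAP+IBU library. Means were 13.1 ± 6.27 and 2.66 ± 0.835 CPM (SD, n = 3), with a fitted log2 fold change of -2.30 (SE 0.38). Pooled counts of 1549 and 366 gave a ratio of 4.80 (4.28 to 5.40), the smallest of the 4.

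Gykl1 encodes a glycerol kinase-like protein of the testis and had the fewest counts after exposure. Control replicates 1, 2 and 3 held 91, 39 and 49 counts (2.39, 1.04 and 1.13 CPM), and APAP+IBU replicates 1, 2 and 3 held 1, 0 and 3 counts. All 3 APAP+IBU libraries were at or under 3 counts, the floor used here, which corresponds to 0.059 to 0.078 CPM in them. Over the pooled counts, 179 against 4, the ratio was 50.8 with an interval from 19.5 to 188. The fitted log2 fold change of -5.52 (SE 0.77) depends on the small count added to each library and is no firm size.

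Pdha2 encodes the testis form of the pyruvate dehydrogenase E1 alpha subunit, which feeds pyruvate into the tricarboxylic acid cycle. It was read at 2.44, 1.95 and 1.70 CPM in the controls and at 2.31, 2.42 and 1.30 CPM in the APAP+IBU libraries. The groups overlapped, and replicate 3 was the lowest library of each. The means were 2.03 ± 0.374 and 2.01 ± 0.617 CPM (SD, n = 3), the fitted log2 fold change was -0.01 (SE 0.32), and the ratio of pooled counts was 0.98 (0.821 to 1.17). Its sign turned to positive under total-count scaling (0.029) and without control replicate 1 (0.14).

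**Figure D1:**
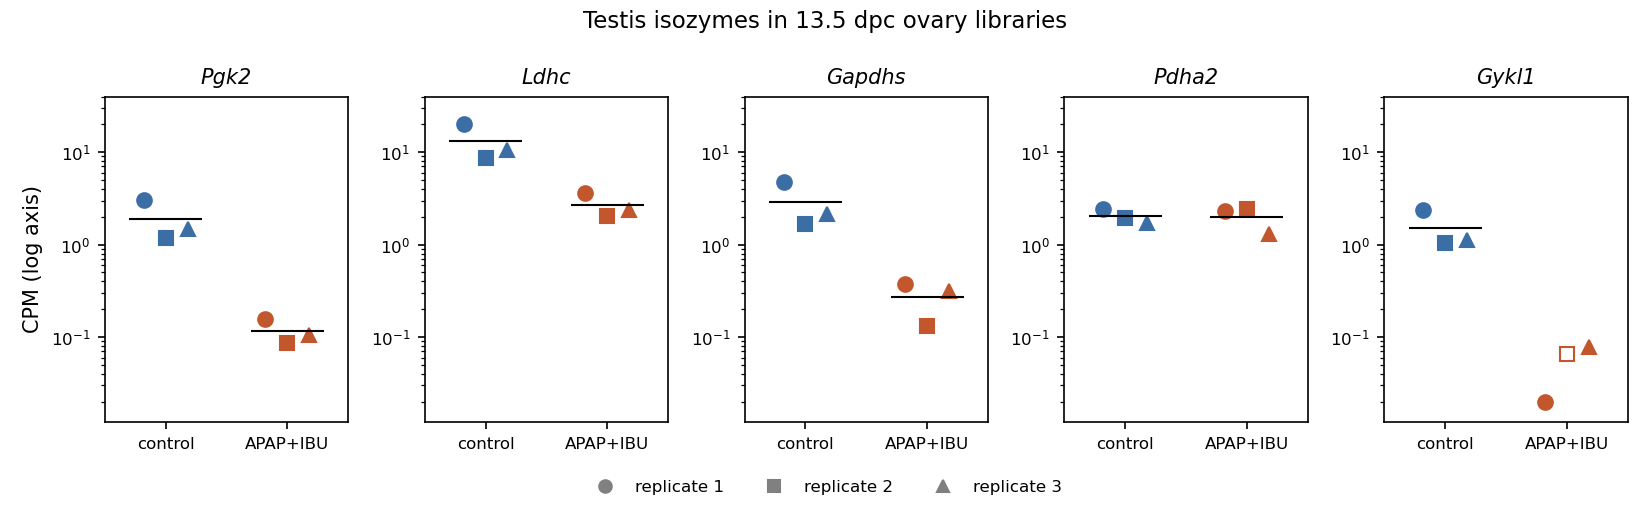
CPM (log axis) of the 5 testis isozymes in each library, with circles, squares and triangles for replicates 1, 2 and 3 and lines at the group means, left out where a library had no count. Of the 5 panels, 4 show all APAP+IBU libraries below all control libraries and the Pdha2 panel shows them overlapping; the open square for Gykl1 marks a library with 0 counts, drawn at the 3-count floor of 0.066 CPM.

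Control replicate 1 weighs on these sizes. Without it the fitted log2 fold change was -3.47 for Pgk2, -2.80 for Gapdhs, -1.84 for Ldhc and -5.05 for Gykl1, and the mean of the other controls stood above the APAP+IBU mean by 11.4, 7.02, 3.59 and 33.3 times. Among all tested genes control replicate 1 was the highest library for 29.0%, and among the testis isozymes for 5 of 5. Across the 6 libraries, which fall into the groups themselves, the log2 CPM of Pgk2, Ldhc, Gapdhs and Gykl1 correlated with each other at r = 0.943 to 0.990, while Pdha2 correlated with them at -0.059 to 0.231.

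The somatic partners lay between 98.0 and 491 CPM for Pgk1, Ldha, Gapdh and Pdha1 and between 10.5 and 22.3 CPM for Gyk, and the groups overlapped for all 5. Pgk1, the phosphoglycerate kinase of most tissues, was at 164, 162 and 128 CPM in the controls and 98.0, 103 and 140 CPM in the APAP+IBU libraries. APAP+IBU replicates 1 and 2 lay below every control, and APAP+IBU replicate 3 lay above control replicate 3. The fitted log2 fold change was -0.41 (SE 0.17).

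Ldha, the lactate dehydrogenase subunit that favours lactate formation, was measured at 456, 482 and 368 CPM in the controls and at 314, 306 and 387 CPM in the APAP+IBU libraries, with a log2 fold change of -0.38 (SE 0.16). Gapdh, the glyceraldehyde-3-phosphate dehydrogenase often used as a reference gene, was at 491, 432 and 303 CPM and at 285, 302 and 396 CPM in the same order, with a log2 fold change of -0.32 (SE 0.21). In both genes, as in Pgk1, replicate 3 was the lowest control and the highest APAP+IBU library. Leaving out control replicate 1 brought Gapdh to -0.17.

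Pdha1, the E1 alpha subunit of pyruvate dehydrogenase in somatic cells, was at 171, 139 and 158 CPM in the controls and 128, 133 and 147 CPM in the APAP+IBU libraries, with a log2 fold change of -0.20 (SE 0.13). Gyk, the glycerol kinase that makes glycerol 3-phosphate, was the only partner with a positive value, and it lay at 10.5, 15.3 and 20.8 CPM in the controls and 22.3, 18.7 and 16.7 CPM after exposure. Its log2 fold change was 0.31 (SE 0.26), and control replicate 3 again sat among the APAP+IBU libraries. With replicates 1 and 2 only, the values were -0.68 for Pgk1, -0.58 for Ldha, -0.63 for Gapdh, -0.23 for Pdha1 and 0.69 for Gyk. These are larger than with all 6 libraries. The left-out replicate 3 is the one with the higher liver RNA in each group, and the part of that RNA in the partner levels was not tested.

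**Figure D2:**
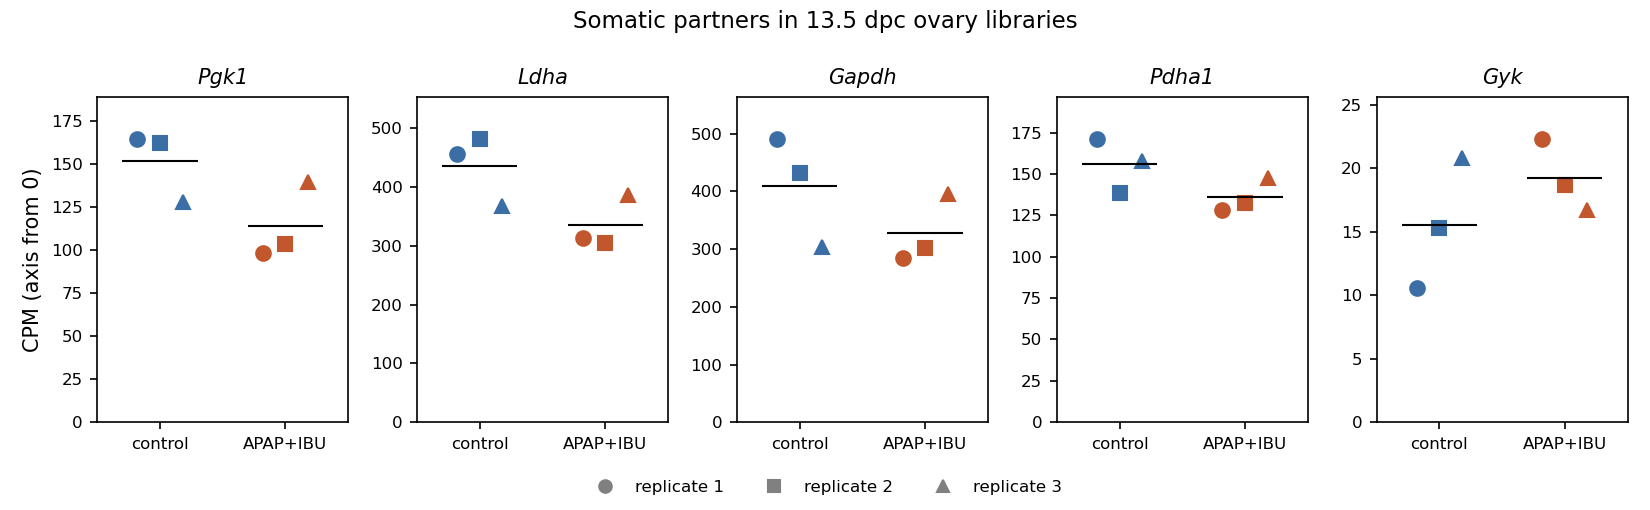
CPM of the 5 somatic partners in each library, on axes that start at 0 and differ between panels, with circles, squares and triangles for replicates 1, 2 and 3 and lines at the group means. In every panel the groups overlap, and in the Pgk1, Ldha and Gapdh panels the triangle is the lowest control and the highest APAP+IBU library.

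Sequence shared with other genes touches the partners most. Of the 50-base stretches of the longest coding transcript, as long as 1 sequenced read, 82.5% in Gapdh, 68.0% in Pgk1, 16.9% in Pdha1, 16.6% in Ldha and 0.629% in Gyk also occur in transcripts of other genes, against none in Pgk2, Ldhc, Pdha2 and Gykl1. Nearly all of the Pdha1 share, 16.5%, lies in Map3k15, which overlaps Pdha1 on the other strand, so the limit on strand given for Gapdhs holds for Pdha1 too. Iffo1 overlaps Gapdh, and Gm14767 and Gm14764 overlap Gyk, also on the other strand, so this limit may touch these partners as well. Map3k15 was counted at 35.9 to 54.0 CPM and Iffo1 at 20.2 to 25.1 CPM. No member shared a stretch with its own partner. The processed pseudogene Gm7336, which holds 82.5% of the Gapdh stretches, was itself counted at 62.0 to 87.7 CPM, and Pgk1-rs7 at 9.60 to 15.98 CPM. The levels of Gapdh and Pgk1 are therefore uncertain.

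Within each pair, levels can be set side by side per kilobase of exon. Pgk2 made up 2.47%, 0.995% and 1.57% of the pair with Pgk1 in the controls, and 0.222%, 0.117% and 0.103% in the APAP+IBU libraries. Gapdhs made up 0.992% to 2.45% of its pair in controls and 0.111% to 0.336% in APAP+IBU ovaries. The Ldhc share was larger, at 8.51%, 3.61% and 5.62% in controls and 2.35%, 1.37% and 1.25% after exposure. In all 3 pairs the partner outweighed the testis isozyme in every library, and the shares of the groups did not overlap.

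The Gykl1 share was the largest in controls: 48.5%, 22.1% and 18.4% in the controls, against 0.366%, 0% and 1.90% in the APAP+IBU libraries. In control replicate 1, Gykl1 and Gyk were thus nearly level per kilobase of all annotated exons, which total 7743 bases for Gyk. The longest coding transcript of Gyk has 4340 bases, and that length would put Gyk further above Gykl1. In CPM, Gykl1 stood at 2.39 and Gyk at 10.5 in this library. The Pdha2 share was 1.68% to 2.21% in controls and 1.38% to 2.82% in APAP+IBU ovaries, and the groups overlapped. Exon length is the union over all annotated transcripts, and reads of the pseudogenes add to or take from the partner, so the shares are set by these choices as well.

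**Figure D3:**
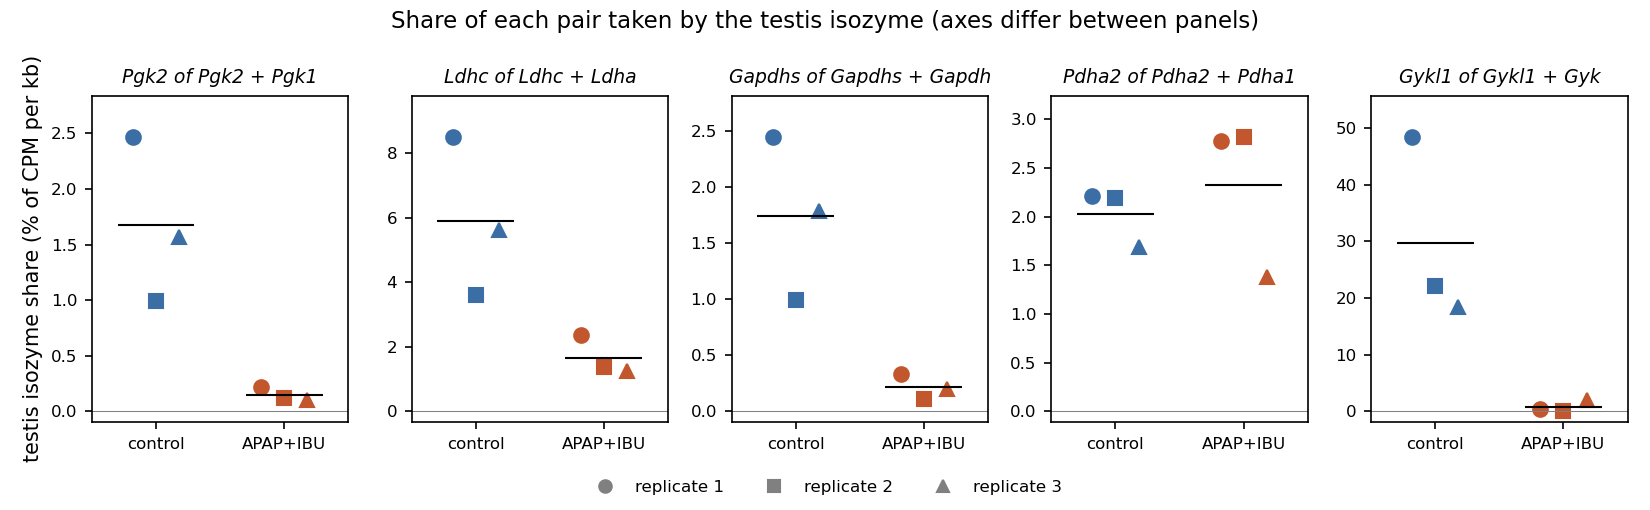
Share of each pair taken by the testis isozyme, in percent of CPM per kilobase, in each library, with circles, squares and triangles for replicates 1, 2 and 3 and lines at the group means, on axes that differ between panels. The control and APAP+IBU shares do not overlap for Pgk2, Ldhc, Gapdhs and Gykl1 and overlap for Pdha2.

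The 5 partners are only part of their pathways, and 35 other genes of glucose uptake, glycolysis, pyruvate entry and glycerol phosphate metabolism were read as well. At an adjusted p under 0.05, edgeR's quasi-likelihood test called 0 of 35 genes (0% of all genes) and DESeq2 also called 0, against 0.952% of all genes. At an unadjusted p under 0.05, 2 of 35 were lower and 0 higher, against 3.21% and 3% of all genes. The 2 were Slc2a3 and Pgam1. The median log2 fold change over the 35 genes was -0.17, with 25 negative and 10 positive, and it was -0.08 without control replicate 1 and -0.10 without APAP+IBU replicate 1.

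All 11 genes of glucose uptake and upper glycolysis had a negative value, from -0.56 to -0.06. Slc2a3, a glucose transporter, had the largest: 51.0, 76.7 and 62.4 CPM in the controls and 37.5, 40.5 and 51.0 CPM in the APAP+IBU libraries, with a log2 fold change of -0.56 (SE 0.19). Its highest APAP+IBU library and lowest control lay at almost the same level. The most abundant genes, Aldoa (aldolase), Tpi1 (triosephosphate isomerase) and Gpi1 (glucose phosphate isomerase), had log2 fold changes of -0.33, -0.33 and -0.19, and Pfkl, the liver form of phosphofructokinase, -0.38, and all 4 overlapped between the groups.

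All 6 genes of lower glycolysis and lactate had a negative value too, from -0.45 to -0.06. Pkm, pyruvate kinase, was the most abundant: 1274, 1142 and 701 CPM in the controls and 696, 737 and 843 CPM in the APAP+IBU libraries, with a log2 fold change of -0.45 (SE 0.23). Control replicate 3 sat among the APAP+IBU libraries, as it did for Gapdh and Ldha. Eno1 (enolase), Ldhb (the second somatic lactate dehydrogenase subunit) and Slc16a3 (a lactate exporter) had values of -0.42, -0.32 and -0.44.

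Genes around pyruvate dehydrogenase did not move one way. Of 13, 7 were negative and 6 positive, with a median of -0.01. Dld, which encodes a subunit shared by several dehydrogenases, had a log2 fold change of 0.10, the kinases Pdk3 and Pdk1, which switch the enzyme off, had -0.17 and -0.05, the phosphatase regulator Pdpr had 0.57 and the pyruvate carrier Mpc2 had -0.29. Of the 5 glycerol phosphate genes, 4 were positive and 1 negative: Gk5, another glycerol kinase, had 0.37, Gpd2 and Gpd1l, both glycerol 3-phosphate dehydrogenases, had 0.14 and 0.15, and the phosphatase Pgp had -0.42.

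The choice of libraries changed these counts. With replicates 1 and 2 only, edgeR called 18 of the 35 genes, 15 of them lower, where 27.2% of all genes were called and 12.9% were called lower. Without control replicate 3 it called 4 of 35, 2 of them lower, where 5.16% of all genes were called and 2.26% were called lower. No other setting tried called any of the 35.

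**Figure D4:**
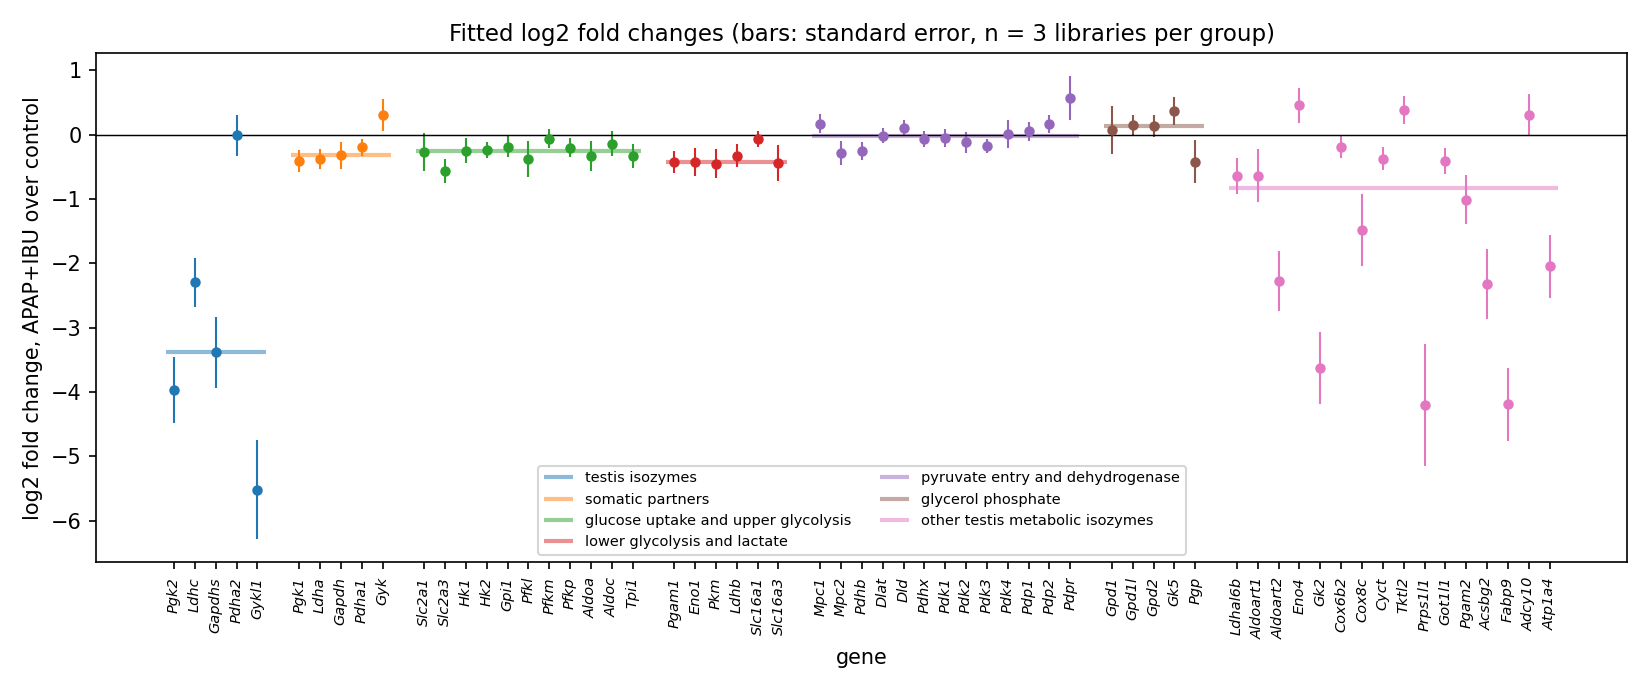
Fitted log2 fold change of APAP+IBU over control for the members and the other metabolic genes, grouped by list, with bars for the standard error and horizontal lines at the list medians (n = 3 libraries per group). The testis isozymes other than Pdha2 lie between -5.52 and -2.30, the glycolysis genes lie between -0.56 and -0.06, and several of the other testis metabolic isozymes lie below -2.

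A list of 16 further metabolic isozymes used in the testis was read beside the 5. Its median log2 fold change was -0.82, from -4.21 to 0.46, and every APAP+IBU library lay below every control for 10 of 16 genes and above for 1, against 5.92% and 4.78% of all genes. edgeR called 0 of 16 at an adjusted p under 0.05, DESeq2 called 4, all lower, against 0.858% of all genes, and 8 had an unadjusted p under 0.05 in edgeR, all lower, against 3.21% of all genes. With replicates 1 and 2 only, edgeR called 10 of 16, 9 of them lower, and without control replicate 3 it called 5, all lower, against 12.9% and 2.26% of all genes called lower in those fits. The list median without control replicate 1 was -0.50. The list was drawn up with the earlier results known, and some of its genes passed the filter through control counts alone. Nothing is therefore read from these counts.

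Prps1l1, a testis form of phosphoribosyl pyrophosphate synthetase, and Fabp9, the fatty acid binding protein of the sperm perforatorium, had the largest values. Prps1l1 was at 1.78, 0.348 and 0.484 CPM in the controls and at 0.079, 0 and 0.052 CPM in the APAP+IBU libraries, with a fitted log2 fold change of -4.21. Fabp9 was at 4.90, 1.50 and 1.82 CPM and at 0.177, 0.131 and 0.130 CPM, with -4.19. Both again had control replicate 1 highest. Gk2, a testis glycerol kinase and the only gene that shares stretches with Gyk, was at 1.99, 0.723 and 0.921 CPM and at 0.118, 0.109 and 0.052 CPM, with -3.63, and was named after its values were seen.

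The most abundant genes of the list differed by less between the groups. Cox6b2 and Cyct, a testis cytochrome c oxidase subunit and the testis cytochrome c, were at 32.4 to 49.2 and 17.8 to 23.3 CPM in controls and 36.9 to 37.7 and 13.2 to 16.4 CPM in APAP+IBU ovaries, with log2 fold changes of -0.19 and -0.38. Tktl2, a transketolase-like gene, was at 9.51 to 9.70 CPM in controls and 8.82 to 14.5 CPM after exposure, with 0.39. Cox6b2 and Tktl2 overlapped between the groups, as Pdha2 did, and Cyct lay lower in every APAP+IBU library than in any control.

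Most, but not all, markers of late spermatogenesis lay lower in the APAP+IBU libraries together with the testis isozymes. The summed level of 21 such genes was 154, 53.4 and 51.0 CPM in the controls and 18.7, 15.2 and 15.2 CPM in the APAP+IBU libraries. Prm1, a protamine that packs sperm DNA, had the highest mean, at 35.9, 7.66 and 5.71 CPM in controls and 0.789, 0.197 and 0.260 CPM in APAP+IBU ovaries. Of 19 tested, 18 had a negative log2 fold change, and the median was -2.94. For 13 every APAP+IBU library lay below every control, against 5.92% of all genes. The list was chosen with earlier results known, and some of its genes, such as Prm3, passed the filter through control counts alone. Nothing is therefore read from these counts. Zpbp, which encodes a sperm protein that binds the zona pellucida, was the 1 gene of the list with every APAP+IBU library above every control (4.78% of all genes), at 2.65, 2.17 and 2.60 CPM in the controls and 4.83, 4.83 and 3.12 CPM after exposure. Spaca1, Acr and Izumo1, genes of the acrosome and of sperm-egg fusion, overlapped between the groups, with log2 fold changes of -0.0082, -0.04 and -0.02, and Spaca1 lay between 3.89 and 5.27 CPM in all libraries. These 4 genes were named after their values were seen. Of the 21, none was at 0 counts in the controls and 2, 1 and 3 were at 0 in the APAP+IBU libraries. The part of this RNA in the isozyme levels was not tested.

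The summed level mixes both kinds of marker, so it gives no scale for the isozymes. In the same fit the log2 fold changes of the tested markers ran from -5.54 to 0.78, with a median of -2.94 and -5.26 for Prm1. Those of the isozymes were -5.52 for Gykl1, -3.97 for Pgk2, -3.38 for Gapdhs, -2.30 for Ldhc and -0.01 for Pdha2.

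**Figure D5:**
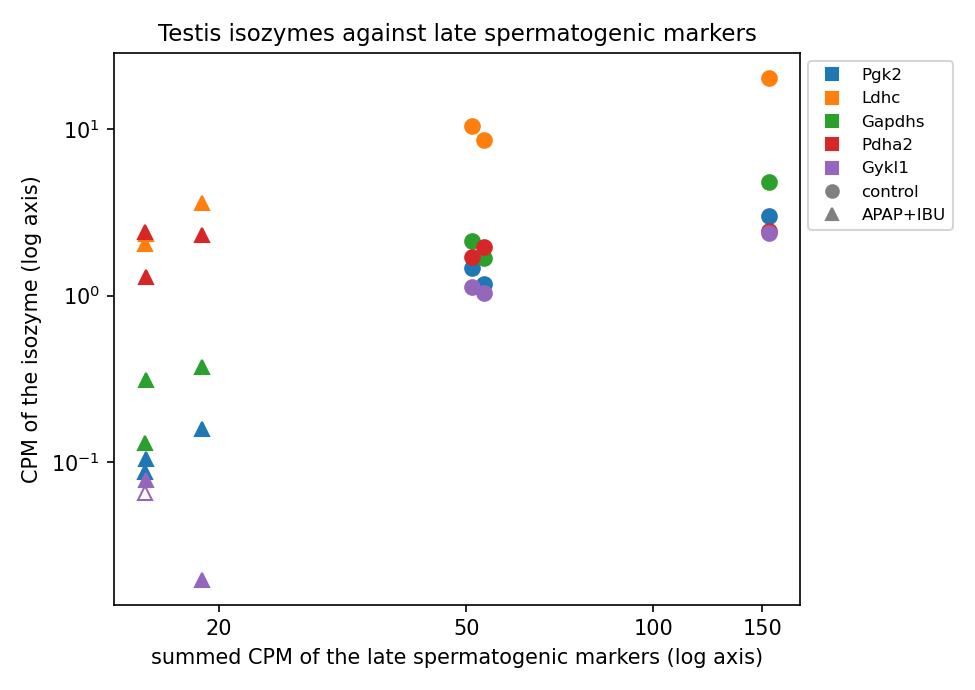
CPM of each testis isozyme against the summed CPM of 21 late spermatogenic markers, both on log axes, with circles for control and triangles for APAP+IBU libraries and an open triangle for a library with 0 counts, drawn at the 3-count floor. Pgk2, Ldhc, Gapdhs, Gykl1 and the marker sum are lower in every APAP+IBU library than in any control, and Pdha2 stays between 1.30 and 2.44 CPM. Within a group the isozymes and the marker sum do not always rank the libraries alike.

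Other markers were less clearly split between the groups. The summed level of 7 genes of pachytene spermatocytes, led by Tex101, was 112 to 201 CPM in controls and 120 to 219 CPM in APAP+IBU ovaries. Tex101 makes up most of that sum, and of the 6 tested genes 5 had a negative log2 fold change, with a median of -0.75 and 3 with every APAP+IBU library below every control, against 5.92% of all genes. The summed level of 8 testis somatic genes, led by Hsd3b1, was 27.3 to 62.0 CPM in controls and 29.2 to 33.7 CPM after exposure, and all 7 tested were negative with a median of -0.76. Cyp17a1, named after its values were seen, was the 1 gene of this list with every APAP+IBU library below every control. Such genes made up 5.92% of all tested. The Leydig cell gene Insl3, named beyond the gene with the highest mean, did not pass the filter and had 9, 0 and 2 counts in the controls. In the APAP+IBU libraries it had 4, 2 and 4 counts. The Y-linked sum, led by Kdm5d, was highest in control replicate 2, as were 7 of the 8 testis somatic genes. The 8 erythroid genes, led by Hbb-y, summed to 6972 to 17028 CPM in controls and 3155 to 9753 CPM in APAP+IBU ovaries. The part of these tissues in the isozyme levels was not tested.

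Other genes with the pattern of the testis isozymes were sought by the correlation, across the 6 libraries, of log2 CPM with the mean of the 5 isozymes. The 10 most alike were Scp2d1, Hs3st4, Tekt4, Spata46, Slc22a14, Hmgb4, Prm1, Tppp2, 1700024P04Rik and Hrasls5, with r from 0.992 to 0.997. All 10 had a negative log2 fold change, from -6.93 to -0.73. Scp2d1 was at 1.44, 0.455 and 0.576 CPM in the controls and at 0.118, 0.044 and 0.026 CPM in the APAP+IBU libraries, again highest in control replicate 1. The 6 points share libraries with the isozymes and fall into the groups, so r is given as a description.

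The genes most like each partner were other ones. They were Vdac1 and Rps6-ps3 for Pgk1, Btbd6 for Ldha, Actb and Ppp1ca for Gapdh, Cdyl and Psors1c2 for Pdha1, and BC002059 and Reck for Gyk, with r from 0.991 to 0.999. Actb, cytoplasmic actin, was at 1748, 1521 and 973 CPM in the controls and at 923, 974 and 1383 CPM in the APAP+IBU libraries, and as for Gapdh control replicate 3 was the lowest control and APAP+IBU replicate 3 the highest exposed library. Pgk1, Ldha and Gapdh correlated with each other at 0.902 to 0.978, and Gyk with Gapdh at -0.935.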

How the data were processed

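Polyadenylated RNA of pooled 13.5 dpc ovaries was sequenced in 3 control and 3 APAP+IBU samples with a stranded kit. The authors aligned reads to mm10 with TopHat2 2.0.14 and Bowtie2 2.1.0, counted them per gene with HTSeq 0.6.1 and deposited raw counts without normalisation; the strand setting of the counting is not given in the sources used here. Sample labels gave the group and the replicate number.

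CPM with TMM normalisation, log2 fold changes and tests were computed with edgeR 4.0.16 (R 4.3.3): the quasi-likelihood test on genes kept by its expression filter, with Benjamini-Hochberg adjustment. DESeq2 1.42.0 was an alternative. GENCODE M21 gave positions, exon lengths and GC content, and RefSeq gave promoters. Gyk was matched through an older symbol.

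The members and the gene lists were chosen with earlier results of these data known. All members were named; of each list, the 3 genes with the highest mean CPM and, for metabolic lists, the 2 with the largest log2 fold change were named, and of each marker list the gene with the highest mean; genes alike were ranked by Pearson correlation of log2 CPM with a prior count of 1, and 1 of the genes so ranked is not reported here.

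Depth gives 3 counts a value of 0.059 to 0.080 CPM. Intervals cover counting error only. Nothing in the labels shows how far the pools were independent beyond being separate pools. The paper states that each pool came from an independent experiment and joined gonads of different litters. The p-values measure the spread between pools. No pair of libraries within a group agreed within sampling noise. Alternatives were other scalings and filters, DESeq2, the replicate number as a block, a loess correction for length and GC content (span 0.3), leaving out each library, and replicates 1 and 2 only.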

Additional observations from a re-analysis of the deposited data

How the results depend on the processing

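The log2 fold changes of Pgk2, Ldhc, Gapdhs, Gykl1 and of all 5 partners kept their sign in every alternative that gave a value. The testis isozyme median ran from -3.71 to -2.80, the pair ratio median from -3.47 to -2.63, and Gyk from 0.0011 (length and GC correction) to 0.69. The value of Pdha2 turned positive with total counts (0.029), without a filter (0.0018) and with replicates 1 and 2 only (0.13), and ran from -0.18 to 0.20 when 1 library was left out. The partner median was -0.58 with replicates 1 and 2 only and -0.50 to -0.17 when 1 library was left out. A filter of at least 10 counts in every library left Ldhc and Pdha2 of the testis isozymes, so it gave no median for them, for the other testis isozymes or for the pair ratio.

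Genes with an adjusted p under 0.05 numbered 0 in edgeR, 192 with DESeq2, 120 without a filter, 2 with the replicate block, 47 with the replicate block and the length and GC correction, 5607 with replicates 1 and 2 only, and 0 to 1064 when 1 library was left out, the highest without control replicate 3. Genes with an unadjusted p under 0.05 numbered 1254, 2346 without a filter, 681 with the replicate block, 1931 with the length and GC correction, 8451 with replicates 1 and 2 only and 580 to 6294 when 1 library was left out. They were 606 higher and 648 lower, and 414 higher and 821 lower with upper quartile scaling. Deviations from the group means of libraries with the same replicate number correlated at -0.069 to -0.015. With 3 libraries per group, these values cannot show whether the numbers pair the samples. The summed level of the liver genes was highest in replicate 3 of both groups. The causes of these shifts were not tested. Low counts limit Gykl1, Pgk2 and Gapdhs in the APAP+IBU libraries.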
